A study of Mus musculus with 5 samples.

Results

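The cells described here are CD4 T cells of the SMARTA line, a mouse strain whose T cells carry a single transgenic receptor, taken from the tumor-draining lymph node after removal of regulatory T cells (Tregs), with and without an antibody to CTLA4. A cell was counted when it held at least 1 unique molecular identifier (UMI, a tag that marks 1 captured transcript) of either variable gene of that receptor, Trbv13-1 or Trav14d-3-dv8, and 0 UMIs of both Foxp3 and Il2ra. This rule took 1230 of 4343 cells (28.3%) in the library with both treatments, called combined below, and 448 of 2186 cells (20.5%) in the library with Treg depletion alone, called depleted. Together they are 1678 of the 20149 cells of the series. The names follow the treatment labels, and a UMI of Foxp3 or Il2ra was seen in 1973 of the 4343 combined and 1412 of the 2186 depleted cells. The levels of Trbv13-1, Trav14d-3-dv8, Foxp3 and Il2ra follow from the rule and are given as description only.

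The series holds 5 single-cell RNA libraries, 1 for each group, and every label gives the genotype C57BL/6 and the cell type as transgenic CD4 T cells. Tumor cells had been injected into the mammary fat pad of the 4 groups other than naive, and the inguinal lymph node was taken on day 8. The growth protocol names these cells MC38 and the treatment protocol PyMG, so the tumor line is not clear. The depleted and the combined group received diphtheria toxin on days 0 and 2, and the protocol gives PBS as its control. The antibody and the combined group received anti-CTLA4 on days 0, 2 and 5. The remaining groups are labelled as having had no treatment: untreated cells from the same lymph node, and naive cells from spleen. The design text speaks of an isotype antibody, but none of the 5 labels assigns one. The labels do not say which allele made Tregs sensitive to the toxin, nor how many mice a library pools. All cells were sorted as CD4+CD45.1+ and profiled from the 3′ end of transcripts. With 1 library per group no test between groups was possible, and the 95% intervals below cover counting error only, not variation between mice.

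CTLA4 is an inhibitory receptor that competes with CD28, the main co-stimulatory receptor of T cells, for the ligands CD80 and CD86. Foxp3-positive Tregs carry much of it, and both their removal and the blockade of CTLA4 are known to release activation of conventional CD4 T cells in lymph nodes. Activated CD4 T cells divide, switch to glycolysis and make cytokines, and some acquire a cytotoxic program under the T-box transcription factor Eomes, with granzymes, perforin and the granule protein Nkg7.

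Promoters that hold a match are shown for 3 genes that were higher and 1 that was lower in the combined cells. T-box factors and interferon-activated factors have well-known recognition letters. The sequences are the 250 bases before the gene start from RefSeq (GRCm38.p6), 5′ to 3′ on the gene's strand. Capitals mark the T-box half-site GGTGTGA in the first 3 and the core of the interferon-stimulated response element (GAAA, any 2 bases, GAAA) in the last, each searched on both strands.
Gzmk, chr13:113180966-113181215, minus strand: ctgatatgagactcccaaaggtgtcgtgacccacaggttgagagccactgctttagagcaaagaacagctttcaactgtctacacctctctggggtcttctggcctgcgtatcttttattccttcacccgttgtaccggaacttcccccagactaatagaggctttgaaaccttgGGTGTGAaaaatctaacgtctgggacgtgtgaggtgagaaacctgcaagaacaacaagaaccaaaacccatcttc
Itga4, chr2:79255176-79255425, plus strand: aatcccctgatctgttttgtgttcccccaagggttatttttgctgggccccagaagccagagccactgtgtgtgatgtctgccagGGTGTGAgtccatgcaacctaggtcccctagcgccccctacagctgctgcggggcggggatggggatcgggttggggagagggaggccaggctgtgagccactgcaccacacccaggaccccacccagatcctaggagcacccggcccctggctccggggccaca
Nkg7, chr7:43436888-43437137, plus strand: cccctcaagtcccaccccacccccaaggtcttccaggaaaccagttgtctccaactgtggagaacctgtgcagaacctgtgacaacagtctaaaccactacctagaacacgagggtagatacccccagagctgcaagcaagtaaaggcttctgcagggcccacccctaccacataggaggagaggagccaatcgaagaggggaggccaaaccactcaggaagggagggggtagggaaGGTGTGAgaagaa
Ifitm2, chr7:140955962-140956211, minus strand: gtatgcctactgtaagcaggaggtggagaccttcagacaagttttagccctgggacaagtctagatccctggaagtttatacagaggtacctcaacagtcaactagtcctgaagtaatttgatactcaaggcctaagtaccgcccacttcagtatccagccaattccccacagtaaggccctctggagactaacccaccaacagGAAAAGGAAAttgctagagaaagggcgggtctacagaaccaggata
The half-site lay 75 bases before the RefSeq start in Gzmk, 165 in Itga4 and 13 in Nkg7, and the element 46 bases before it in Ifitm2. For Gzmk and Nkg7 the GENCODE spans given below begin further upstream, so their half-sites lie within those spans. Over the full window, which adds the first 50 bases of the gene, 3.98% of 32851 RefSeq promoters hold the half-site and 3.44% the element. Of the 12 genes that stood highest in the combined cells by the rule for named genes, 9 had a promoter entry and 3 of these held the half-site (Kcnc1, Itga4 and Gzmk) and 0 the element. Of the 12 lowest, 9 had an entry, 2 held the element (Ifitm2 and Ifitm3) and 1 the half-site. Of 2 further motifs searched, the AP-1 site TGANTCA was found in 0 of the highest and 2 of the lowest genes, and in 7.81% of all promoters, and the cyclic AMP response element in 0 of either and in 1.79% of all. Prf1, which was higher, and Ifitm1, which was lower, held neither the half-site nor the element. Eomes, which was higher, held the element 154 bases before its start but not the half-site. A match describes these letters and is no evidence of binding.

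The combined cells were the shallower set, with a median of 2162.5 UMIs per cell against 4199 in the depleted cells, over the 11924 genes listed in the files. The sums rest on 2972255 and 2459581 UMIs, so that 1 UMI was worth 0.336 and 0.407 counts per 1000000 UMIs (CPM). Many values are therefore given also after thinning every cell to 1000 UMIs, which left out 94 combined and 3 depleted cells, or for cells with 2000 to 5000 UMIs. A value with neither is not matched for depth. A lower depth makes a receptor UMI rarer and a zero of Foxp3 and Il2ra easier to meet, so the depth also acts on who is counted: when the rule was applied after thinning it took 723 and 206 cells. The end of Trav14d-3-dv8 is not unique either: 73.7% of its 31-base words in the last 300 bases occur in 8 other genes, among them other Trav14 genes, so its reads may have been split or lost in counting. Of the cells counted, 724 and 217 had exactly 1 receptor UMI and 506 and 231 had more. The depleted and the combined library shared 4 cell barcodes, 1 of them among the counted cells.

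**Figure D1:**
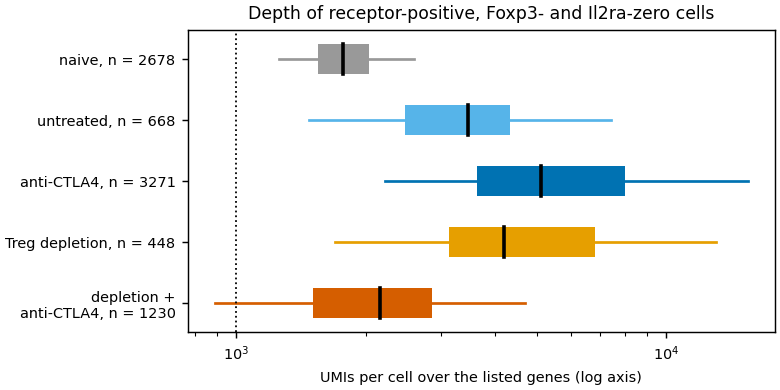
UMIs per cell (log axis) for the cells that met the rule in each of the 5 libraries, with the 5th to 95th percentile as a line, the quartiles as a box, the median as a black bar and the 1000 UMIs used for thinning as a dotted line. The combined cells have a median of 2162.5 UMIs, below the 4199 of the depleted cells and above the 1771 of the naive cells.

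The labelled cell type could be checked on 4 listed markers of CD4 T cells. Cd4 itself stood at 439 CPM in naive, 773 in untreated, 621 in antibody, 580 in depleted and 396 in combined cells, and Cd8a at 0 UMIs in depleted and 1 UMI in combined cells. Together with Cd8b1, the other listed CD8 marker, the sum was 45.5 CPM in depleted and 65.3 CPM in combined cells, against 119 CPM in naive cells. Thy1, a surface marker of T cells, was 1.92-fold lower in combined than in depleted cells (285 against 547 CPM), while Cd5 (454 against 502 CPM) and Cd28 (578 against 511 CPM) were closer. UMIs of the 3 other listed Trbv genes were seen in 5 of 1230 combined and 0 of 448 depleted cells. Trbv13-1 stood at 262 CPM in depleted and 530 CPM in combined cells. Around the rule's limits, Nkg7 stood at 972 CPM in combined cells with 1 receptor UMI, at 1096 CPM with more, at 872 CPM in cells that lacked a receptor UMI and at 619 CPM in receptor-positive cells with a single UMI of Foxp3 or Il2ra. In the depleted library the same 4 sets gave 257, 206, 165 and 687 CPM.

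Between the combined and the depleted cells, 331 of 6590 measured genes stood 2-fold or more above the depleted level (5.02%) and 204 as far below it (3.1%), where a measured gene has a mean of 25 CPM or more and 30 or more UMIs over both sets. The median gene differed by 0.05 on the log2 scale. After thinning, 360 of 6570 genes were higher (5.48%) and 193 lower (2.94%), and 330 of the 331 and 203 of the 204 kept their direction. Thinning draws from the same UMIs, so kept directions say little about depth. Among cells with 2000 to 5000 UMIs, 329 of the 331 higher genes kept their direction, but only 145 of the 204 lower ones. The other 59 lower genes changed side, 11 of them past 2-fold. The split between higher and lower depended on the scaling: with edgeR's TMM factors it was 258 to 247, and with size factors from relative log expression 254 to 250, so that the higher genes made up 51.1% and 50.4% of those past 2-fold in place of 61.9%. Many genes near the low limit carry wide intervals, and among the 2678 genes that average 100 CPM or more 102 were higher and 73 lower.

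Several genes of the cytotoxic program were higher in the combined cells. Nkg7 (chr7:43437073-43438249 in GRCm38), a granule membrane protein named here after its values had been seen, stood at 47.5 CPM in naive, 50.7 in untreated, 21.3 in antibody, 228 in depleted and 1030 in combined cells. Eomes (chr9:118478212-118486132), the T-box factor, gave 3.49, 20.5, 6.90, 101 and 292 CPM for these groups. Both were lowest in the 3 groups without toxin, higher after toxin alone and highest after both treatments, with no overlap between the intervals of the last 2 groups. The combined level of Nkg7 was 4.53-fold that of the depleted cells (4.13 to 4.96), and 4.41-fold after thinning. For Eomes the ratio was 2.89 (2.51 to 3.35), and 3.17 after thinning.

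Gzmk (chr13:113171608-113225908), which encodes granzyme K, stood at 0.206 CPM in naive, 7.64 in untreated, 4.70 in antibody, 13.4 in depleted and 177 in combined cells. Its ratio between the last 2 was 13.2 (9.26 to 19.3), and 16.1 after thinning. Prf1, the pore-forming protein perforin, stood at 33.7, 3.22, 0.798, 7.72 and 57.9 CPM, so that the naive cells came second after the combined ones, which were 7.49-fold above the depleted cells (4.65 to 12.8). Ccl5, a chemokine that attracts T cells, was 8.89-fold higher in combined cells (213 against 24.0 CPM), but 83.0% of its depleted UMIs lay in 1 cell and 27.6% of its combined UMIs in another. The program did not extend to every granzyme: Gzmb stood at 67.1 CPM in depleted and 46.1 CPM in combined cells, and at 0 UMIs in untreated cells. Of 20 measured genes of the Th1 and cytotoxic list 6 were at least 1.5-fold higher and 4 as much lower, where 15.7% and 8.59% of all measured genes were, and the list's median was 0.29 on the log2 scale.

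The 4 lower genes of that list are known from Th1 cells. Cxcr6, a chemokine receptor of tissue-homing effector cells, stood at 1.85 CPM in naive, 10.5 in untreated, 14.8 in antibody, 49.2 in depleted and 5.05 in combined cells, 9.75-fold lower than after depletion alone (5.68 to 17.9) and 6.56-fold after thinning. Cxcr3, the receptor for interferon-induced chemokines, stood at 8.22, 136, 222, 227 and 64.3 CPM, 3.54-fold lower (3.0 to 4.19) and 3.20-fold after thinning. Both receptors were highest in the depleted cells and lower in the combined ones. The other two were Il18r1, a chain of the interleukin-18 receptor (15.1 against 44.3 CPM), and Ifng (19.5 against 37.0 CPM). Ifng, the signature cytokine of Th1 cells, was 1.90-fold lower before thinning and 1.18-fold lower after it (0.54 to 2.42), an interval that spans no difference, and 31.9% of its depleted UMIs lay in 1 cell. Tbx21, the T-box factor of Th1 cells, was below the limit for measured genes, at 23.2 CPM in depleted and 7.06 CPM in combined cells.

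**Figure D2:**
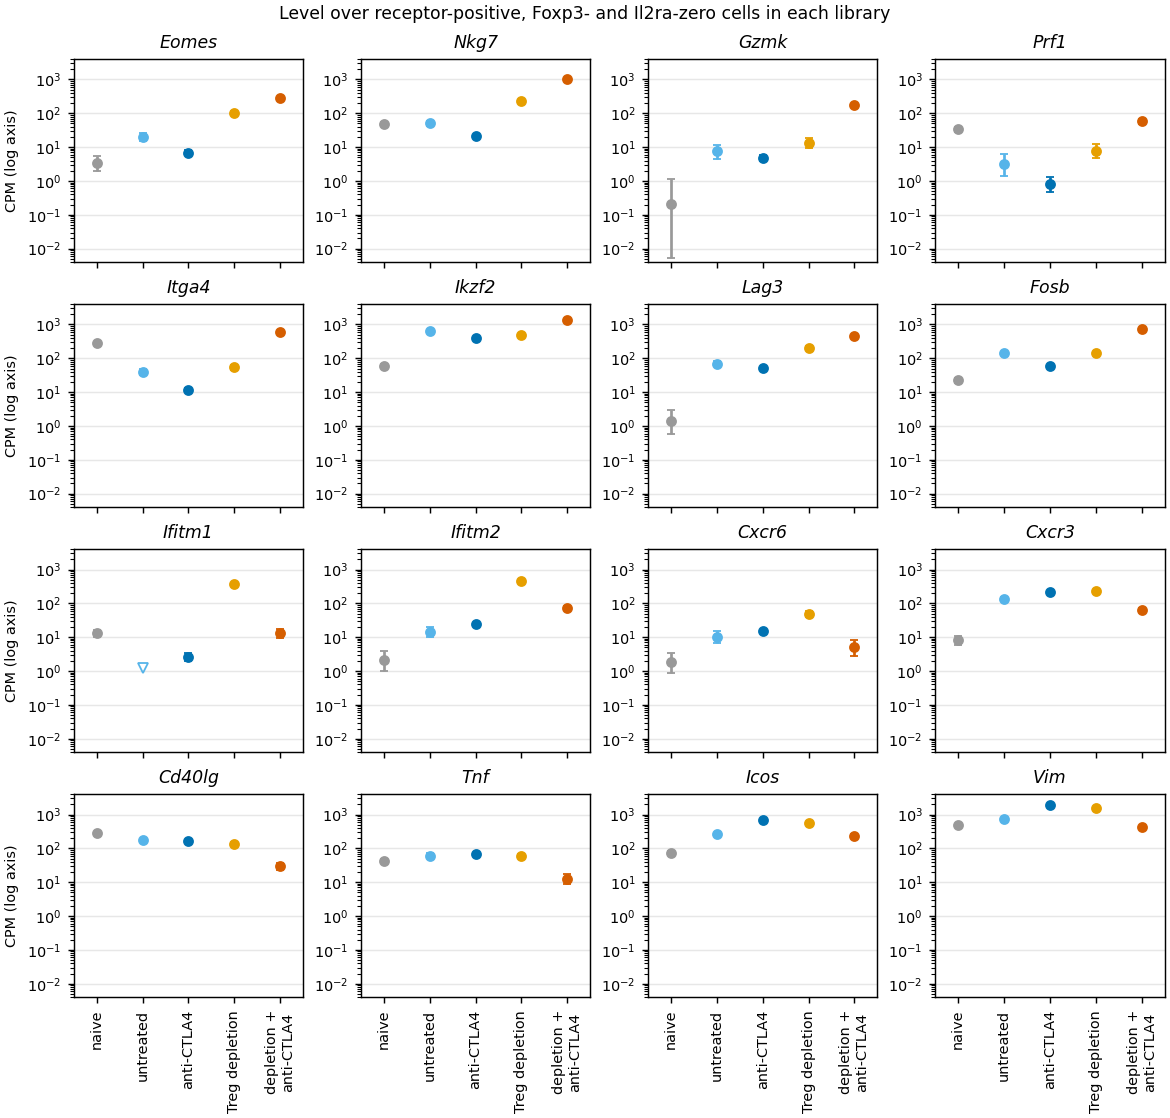
Level of 16 genes in CPM (log axis, the same in every panel) summed over the cells that met the rule in each of the 5 libraries, 1 point per library with its exact 95% Poisson interval. The open triangle marks a gene at 0 UMIs, drawn at 3 UMIs. The upper 2 rows hold genes that were higher in combined than in depleted cells (Nkg7 1030 against 228 CPM), the lower 2 rows genes that were lower (Ifitm1 13.1 against 364 CPM).

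The share of cells with these transcripts was higher as well. After thinning, 549 of 1136 combined cells (48.3%, 45.4 to 51.3) and 54 of 445 depleted cells (12.1%, 9.25 to 15.5) held a UMI of Nkg7, and without thinning 59.4% and 19.6% did. Eomes was seen in 20.2% and 6.29% of thinned cells, and Gzmk in 11.4% and 0.674%. At least 1 of the 3 genes was seen in 55.5% of combined and 16.9% of depleted cells after thinning (64.8% and 25.4% without), against 1.47% of naive, 3.18% of untreated and 1.77% of antibody cells. At least 2 of the 3 were seen in 20.7% and 2.02%. Cells of each library that carried markers of B cells, plasma cells, macrophages or dendritic cells and none of 4 T cell markers gave the background: a UMI of any of the 3 genes was found in 0 of 6 in the combined and 0 of 7 in the depleted library, at median depths of 3928.5 and 3692 UMIs, which allows shares of up to 45.9% and 41.0%, so this background is poorly bounded. Natural killer cells share the program. Their summed marker list stood at 17.8 CPM in combined and 39.8 CPM in depleted cells, with 4 of 6 genes, Ncr1, Klra8 and Klre1 among them, at 0 in both.

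**Figure D3:**
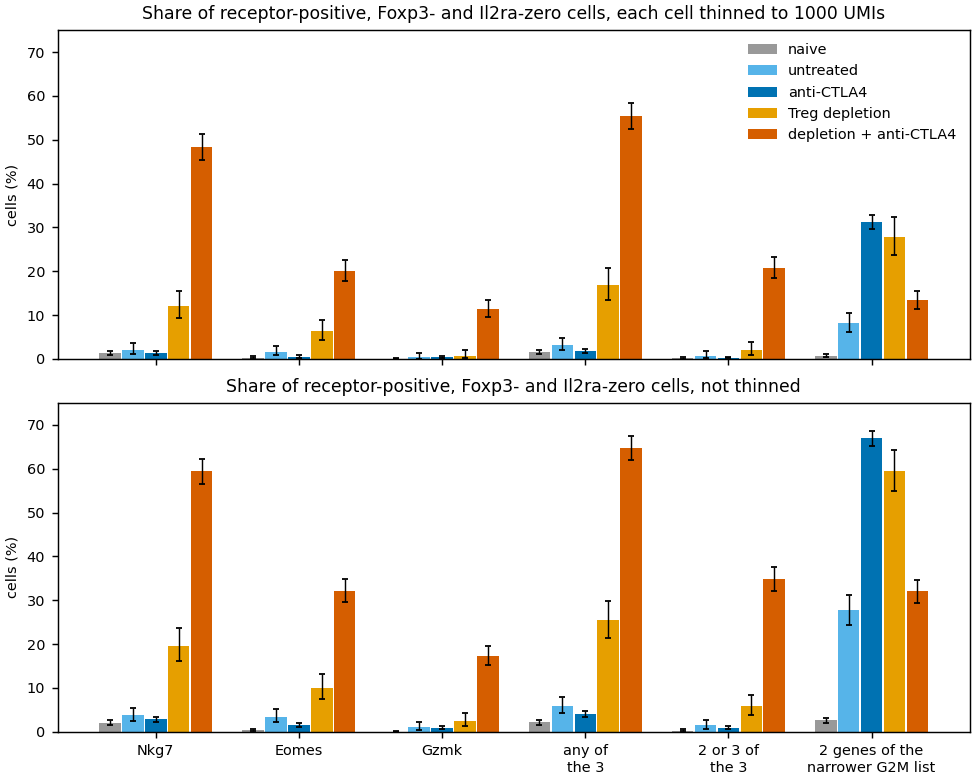
Share of cells (%) that met the rule and held a UMI of Nkg7, Eomes, Gzmk, any or at least 2 of these, or UMIs of at least 2 genes of a G2M list narrowed to dividing cells, in each of the 5 libraries, after thinning (top) and without (bottom), with exact 95% binomial intervals. After thinning Nkg7 is seen in 48.3% of combined and 12.1% of depleted cells, and the cell cycle genes in 13.4% and 27.9%.

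Leaving out every cell with a UMI of Eomes, Gzmk or Nkg7, an alternative added after the data had been seen, kept 433 combined and 334 depleted cells. In these, 245 of 6568 genes lay 2-fold or more above (3.73%) and 135 below (2.06%), and 323 of the 328 higher genes that still had a value kept their direction. Ccl5 (-0.81 on the log2 scale) and Nr4a2 (-1.22) then stood on the lower side.

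Other leading genes of the combined cells lie outside the cytotoxic program. Itga4 (chr2:79255426-79333123), the α4 integrin chain used to bind VCAM1 and MAdCAM1, stood at 278 CPM in naive, 40.2 in untreated, 12 in antibody, 53.7 in depleted and 601 in combined cells. It was 11.2-fold higher than after depletion alone (9.37 to 13.5), 8.94-fold after thinning, and was seen in 54.8% of combined and 14.7% of depleted cells without thinning. Only the combined cells were above the naive ones. Kcnc1, a voltage-gated potassium channel, stood at 0.617, 2.01, 0.0470, 4.47 and 125 CPM in the 5 groups, 28.0-fold higher in combined than in depleted cells (15.5 to 56.5), 30.8-fold after thinning (8.37 to 256), and found in 238 and 6 cells. Pde2a, a phosphodiesterase that degrades cyclic nucleotides, stood at 111 against 6.91 CPM, a ratio of 16.1 (9.91 to 28.0), and 13.8 after thinning. Plek, a substrate of protein kinase C in blood cells, gave 127 against 11 CPM, Tubb2b, a β-tubulin, 274 against 29.3 CPM, and H2-Ob, a chain that modulates MHC class II peptide loading, 66.6 against 6.51 CPM. Dglucy (15.6-fold), Dcp1b, an mRNA decapping factor (10.6-fold), and Tm6sf1 (8.49-fold) complete the 12 highest with Jchain, Gzmk and Ccl5.

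Jchain, which joins the units of secreted IgM and IgA, owes its place to 1 cell. It held 523 of the 530 UMIs of Jchain in combined cells (98.7%), along with 4413 of Igkc and 2138 of Ighg2c, and immunoglobulin made up 40.3% of its 17854 UMIs. It also held 2 UMIs of Trbv13-1, by which it met the rule, and 2 of Cd4, which the rule does not use. The next cell held 43 immunoglobulin UMIs. This cell carried nearly all of the plasma cell marker list, whose sum stood at 1745 CPM in combined and 27.2 CPM in depleted cells. Without the cell with most immunoglobulin in each library, 328 genes were at least 2-fold higher and 198 lower. The summed B cell list stood at 463 against 397 CPM, the macrophage or monocyte list at 26.2 against 18.3 and the dendritic cell list at 154 against 98.0 CPM. The 2 listed genes of the stroma or endothelium list summed to 268 against 134 CPM, with 1 measured and at least 1.5-fold higher, and 307.7 CPM in naive cells. The part of such cells in the results was not tested. Epcam and Krt18, the listed epithelial markers, summed to 45.4 against 6.51 CPM, with 2 of the combined cells holding both.

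Ikzf2, the transcription factor Helios, which is found in many Tregs and in chronically stimulated T cells, stood at 60.8 CPM in naive, 658 in untreated, 404 in antibody, 486 in depleted and 1373 in combined cells. The combined cells were highest, 2.83-fold above the depleted ones (2.65 to 3.02) and 2.38-fold after thinning. Cells with a Foxp3 or Il2ra UMI were left out by the rule, but such a UMI is more easily missed at a lower depth. In the cells with Foxp3 or Il2ra, Ikzf2 stood at 1263 CPM in the combined and 1068 CPM in the depleted library. In cells without a receptor UMI and without Foxp3 or Il2ra it stood at 1132 and 357 CPM. The part of Tregs without such a UMI in the higher level was not tested. Ikzf2 was the only one of 8 measured genes of the Treg and suppression list at least 1.5-fold higher, against 3 lower, Ebi3, Tnfrsf4 and Capg. Tox, a regulator of exhausted and follicular T cells, was 2.80-fold higher (469 against 168 CPM) and Lag3, an inhibitory receptor that binds MHC class II, 2.25-fold (462 against 206 CPM). Among the 7 measured inhibitory receptors Lag3 alone was higher and Cd160 alone lower (55.2 against 163 CPM). At this limit of 1.5-fold, 15.7% of all measured genes were higher and 8.59% lower, so the counts for these receptors lie near those shares. After thinning Tox was 2.17-fold and Lag3 2.11-fold higher. Pdcd1, the receptor PD-1, stood at 141 against 113 CPM.

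The target of the antibody differed little. Ctla4 stood at 3.90 CPM in naive, 131 in untreated, 99.2 in antibody, 158 in depleted and 181 in combined cells, a ratio of 1.15 between the last 2 whose interval runs from 1.00 to 1.31. Its competitor Cd28 was 1.13-fold higher (1.05 to 1.22). Icos, a co-stimulatory receptor of activated and follicular helper cells, stood at 75.2, 265, 694, 550 and 240 CPM, 2.29-fold lower in combined than in depleted cells (2.09 to 2.51) and 2.88-fold after thinning. The combined cells thus lay beside the untreated ones for Icos, while both single treatments were above. Tnfrsf4, the receptor OX40, was 1.69-fold lower (190 against 322 CPM). The follicular helper genes Cxcr5 (69.6 against 80.9 CPM) and Bcl6 (47.1 against 41.5 CPM) had intervals that span no difference.

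Cytokine and ligand genes were lower in the combined cells. Of 10 measured genes of the cytokine list 9 were at least 1.5-fold lower and 0 higher, where 8.59% and 15.7% of all measured genes were. The median of the list was -1.21 against 0.05 for all genes, and -1.88 after thinning. Without cells holding Eomes, Gzmk or Nkg7, 5 of 9 measured genes were lower (median -0.68). In cells without a receptor UMI and without Foxp3 or Il2ra, 2 of 7 were lower (-0.35). Cd40lg (chrX:57212143-57224042), the ligand by which CD4 T cells help B cells and dendritic cells, stood at 278 CPM in naive, 172 in untreated, 160 in antibody, 135 in depleted and 29.3 in combined cells. Tnf gave 43.2, 61.2, 66.6, 59.8 and 12.5 CPM for these groups. For both genes the combined cells were below all 4 other groups with no overlap of the intervals, 4.63-fold lower than the depleted cells for Cd40lg (3.64 to 5.93) and 4.80-fold for Tnf (3.33 to 7.08), and 5.52-fold and 4.17-fold after thinning. A UMI of Cd40lg was seen in 2.55% of combined and 13.5% of depleted cells after thinning. Tnfsf11, the ligand RANKL, was 3.12-fold lower (16.8 against 52.5 CPM) and Ebi3, a subunit of interleukin-27 and interleukin-35, 2.75-fold (19.5 against 53.7 CPM).

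A family of interferon-inducible membrane proteins that block virus entry, clustered on chromosome 7, was among the lowest genes. Ifitm1 stood at 13.0 CPM in naive, 0 UMIs in untreated, 2.58 CPM in antibody, 364 in depleted and 13.1 in combined cells, Ifitm2 at 2.05, 14.5, 24.8, 446 and 74.7 CPM, and Ifitm3 at 5.14, 2.82, 7.89, 273 and 52.2 CPM. All 3 were highest in the depleted cells, and the combined cells were 27.8-fold (20.1 to 39.3), 5.98-fold (5.17 to 6.94) and 5.23-fold lower (4.39 to 6.27), and after thinning 31.6-fold, 6.44-fold and 4.85-fold. They came from few cells: 31 of 448 depleted and 7 of 1230 combined cells held Ifitm1, and 32.6% of the 31-base words in the last 300 bases of Ifitm2 transcripts occur in other genes. Other interferon-induced genes were on both sides. Of 24 measured type I interferon genes 2 were at least 1.5-fold higher and 2 lower, where 15.7% and 8.59% of all measured genes were. Isg15 was among the lower ones (181 against 376 CPM), and the median of the list was 0.04. In cells with 2000 to 5000 UMIs that median was -0.56, with 14 of 28 genes at least 1.5-fold lower, where 7.15% of all genes in that range of depth were. Of 21 interferon-γ response genes 7 were higher and 0 lower, with a median of -0.01, and in cells with 2000 to 5000 UMIs 1 was higher, where 12.4% of all genes were, and 6 lower.

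The remaining lowest genes had mixed roles. Actg2, a smooth-muscle γ-actin, stood at 0.411 CPM in naive, 28.6 in untreated, 200 in antibody, 80.5 in depleted and 1.01 in combined cells, with 3 UMIs in the last, a ratio of 79.8 with a counting interval from 26.9 to 390. Pdzk1ip1, a small membrane protein (10.8 against 76.4 CPM), Sytl3, a regulator of vesicle release (9.76 against 68.3 CPM), and Cd22, an inhibitory lectin better known from B cells (7.74 against 56.1 CPM), were also lower, and stood between 12.1 and 94.3 CPM in untreated and antibody cells. Some named genes share their ends with other genes, so that their levels depend on how the authors' counting treated shared reads. Among words of 31 bases in the last 300 bases, 98.1% of Bcl2a1d, every one of Hist1h2ap and 17.3% of Eno1 occur elsewhere, as do 15.7% of Pde2a, 13.4% of Sytl3, 12.9% of Rrm2, 9.63% of Ifitm3 and 9.26% of Isg15. Bcl2a1d (8.75 against 86.2 CPM), a survival factor of the Bcl2 family, Hist1h2ap (10.1 against 120 CPM), a histone gene, and Eno1 (83.8 against 431 CPM), the glycolytic enzyme enolase, were all lower in the combined cells.

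Genes of the cell cycle were lower in the combined cells, and this depended on the depth of the cells compared. Of 33 measured genes of the G2M list 31 were at least 1.5-fold lower and 1 higher, with a median of -1.21. Of 36 S phase genes 29 were lower and 0 higher, with a median of -1.24. By this limit 8.59% of all measured genes were lower and 15.7% higher. Mki67, the proliferation marker Ki-67, stood at 0.822 CPM in naive, 74.0 in untreated, 388 in antibody, 314 in depleted and 103 in combined cells, and Rrm2, a subunit of ribonucleotide reductase, at 2.47, 36.2, 291, 311 and 66.3 CPM. The combined cells stood between untreated and depleted cells for both. After thinning the medians were -1.24 and -0.68. Among cells with 2000 to 5000 UMIs, 640 combined and 228 depleted, they were 0.12 over 12 measured genes and 0.18 over 24. Within this range of depth the medians were thus small and positive, against 0.02 for all genes, and Mki67 stood at -0.05 on the log2 scale. At least 1.5-fold higher were 1 of the 12 and 3 of the 24 genes, and 1 of each list was lower. Of all genes in that range 12.4% were higher and 7.15% lower. This range leaves out the deeper cells: the 75th percentile was 6818.8 UMIs in depleted and 2860.5 UMIs in combined cells. The part of that choice in these values was not tested.

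After thinning, the share of cells in which 2 or more G2M genes were seen was 71.6% in combined and 70.8% in depleted cells, but also 41.5% in naive cells, where Cenpa, Smc4, Tubb4b and Hmgb2 were each seen in over 10% of cells. With these 4 left out, a choice made after the data had been seen, the share was 13.4% of 1136 combined cells (11.5 to 15.5) and 27.9% of 445 depleted cells (23.8 to 32.3). It was 0.678% in naive, 8.17% in untreated and 31.3% in antibody cells, and 0 of 6 and 0 of 7 in the cells with markers of other types. Without thinning the shares were 32.0% and 59.6%, against 2 of 6 and 4 of 7 in those background cells. Of 13 measured inhibitors of the cell cycle 8 were at least 1.5-fold higher and 1 lower, where 15.7% and 8.59% of all measured genes were. Their median was 0.70. In cells with 2000 to 5000 UMIs 3 of 14 were higher and 1 lower, where 12.4% and 7.15% of all genes were. The median there was 0.37. Klf6, a zinc-finger factor, was 3.27-fold higher (283 against 86.6 CPM) and Tsc22d3, a glucocorticoid-induced leucine zipper protein, 2.58-fold (183 against 71.2 CPM), while Cdkn2c, an inhibitor of CDK4 and CDK6 that dividing cells express, was 2.07-fold lower.

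Metabolic genes were lower over all cells. Within a range of depth this was less so for glycolysis, respiratory chain and proteasome genes, but not for the median of cholesterol synthesis genes. Of 13 measured glycolysis genes 8 were at least 1.5-fold lower and 0 higher, with a median of -0.97, and -0.47 in cells with 2000 to 5000 UMIs. Pgk1 (397 against 931 CPM), Ldha (960 against 2218 CPM) and Aldoa (518 against 1179 CPM) were each between 2.28-fold and 2.34-fold lower. Of 28 respiratory chain genes 10 were lower and 0 higher (median -0.53), of 26 proteasome genes 6 and 0 (-0.51), and of 15 cholesterol synthesis genes 5 and 0 (-0.27). Over all cells 8.59% of all measured genes were lower and 15.7% higher. In cells with 2000 to 5000 UMIs 2 of 28 respiratory chain genes were lower (-0.34), 1 of 26 proteasome genes (-0.27) and 2 of 11 cholesterol synthesis genes (-0.32), where 7.15% of all genes were. Of 19 genes of migration and the cytoskeleton 10 were lower and only Itga4 higher over all cells (median -0.62). In cells with 2000 to 5000 UMIs 7 were lower and 3 higher (-0.26), where 7.15% and 12.4% of all genes were. Vim, the intermediate filament vimentin, stood at 498 CPM in naive, 732 in untreated, 1875 in antibody, 1532 in depleted and 442 in combined cells, and S100a6, a calcium-binding protein of activated cells, at 516 against 1559 CPM.

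**Figure D4:**
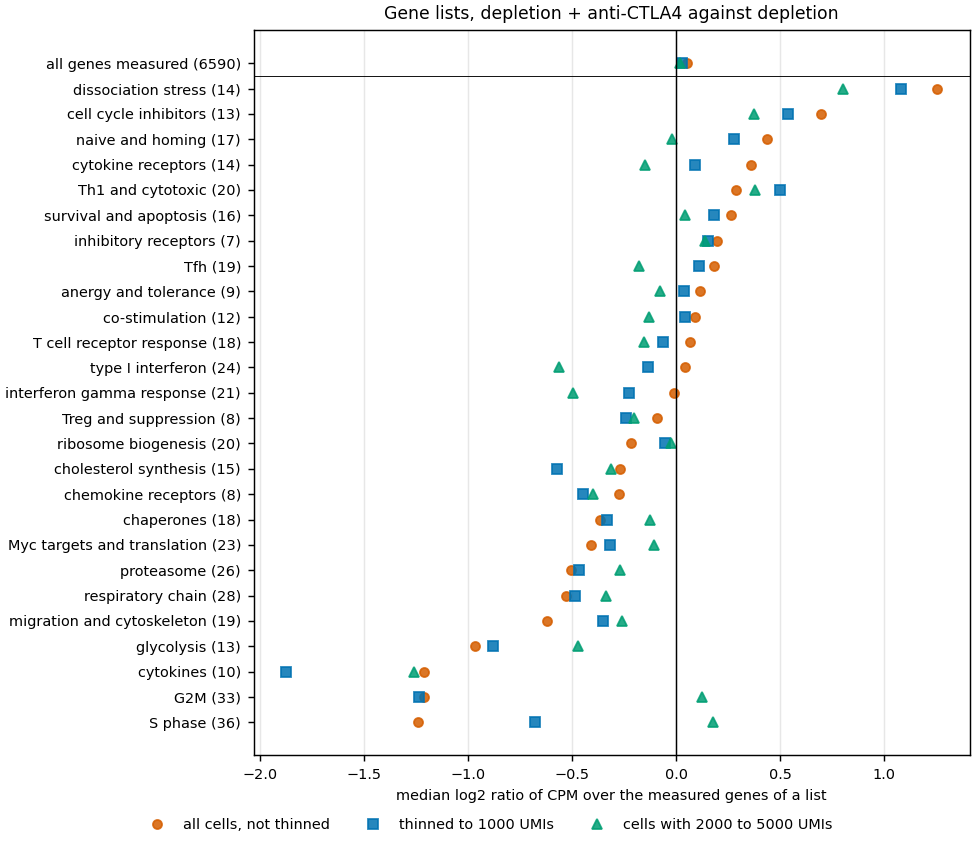
Median log2 ratio of CPM, combined over depleted cells, for 26 gene lists and for all measured genes, with the number of measured genes of the unthinned comparison in brackets: all cells (circles), cells thinned to 1000 UMIs (squares) and cells with 2000 to 5000 UMIs (triangles). The cytokine and dissociation stress lists stay on their side in all 3 settings, while the G2M and S phase lists move from -1.21 and -1.24 to 0.12 and 0.18 in the last.

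Immediate-early genes, which are transcribed within minutes of stimulation and also during tissue digestion, were higher in the combined cells. Of 14 measured genes of the dissociation stress list 12 were at least 1.5-fold higher and 0 lower, with a median of 1.25, 1.08 after thinning and 0.80 in cells with 2000 to 5000 UMIs. Fos stood at 113 CPM in naive, 294 in untreated, 75 in antibody, 262 in depleted and 1161 in combined cells, and Fosb at 22.2, 143, 60.2, 140 and 734 CPM. The combined cells were highest for both AP-1 factors, by 4.43-fold (4.07 to 4.82) and 5.25-fold (4.68 to 5.90) over the depleted cells. Dusp1, a phosphatase of MAP kinases, was 4.88-fold higher (337 against 69.1 CPM) and Rhob, a small GTPase, 8.65-fold (77.4 against 8.95 CPM). After thinning the ratios of Fos, Fosb and Dusp1 were 4.0, 4.75 and 4.27. The part of tissue handling in these values was not tested. Of 18 genes of the T cell receptor response 4 were higher, Nr4a2 (97.6 against 22.4 CPM), Cd69 (813 against 389 CPM) and Dusp5 among them, and 2 lower, with a median of 0.07. These counts lie near the 15.7% and 8.59% of all measured genes. In cells with 2000 to 5000 UMIs 4 of 18 were higher and 4 lower, where 12.4% and 7.15% of all genes were. The median there was -0.16.

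Genes of naive and recirculating T cells stood higher in the combined cells over all cells and after thinning, but not between 2000 and 5000 UMIs. Of 17 measured genes 6 were at least 1.5-fold higher and 0 lower, where 15.7% and 8.59% of all measured genes were, with a median of 0.44. After thinning 5 of 18 were higher and 2 lower (0.28), where 1067 and 704 of all 6570 genes were. In cells with 2000 to 5000 UMIs 4 of 17 were higher and 2 lower (-0.02), where 12.4% and 7.15% of all genes were. Foxp1, a factor that keeps T cells quiescent, stood at 1658 CPM in naive, 622 in untreated, 261 in antibody, 215 in depleted and 585 in combined cells. Bach2, a repressor of effector genes, stood at 202, 108, 28.9, 35.8 and 88.2 CPM. For both, the combined cells lay next to the untreated ones and above both single treatments. Ccr7, a chemokine receptor for lymph node homing, was 1.27-fold lower (172 against 218 CPM). Cd44, a marker of activation, was 1.83-fold lower (55.8 against 102 CPM), but 1.28-fold after thinning (0.860 to 1.87), an interval that spans no difference. Il10ra, the receptor chain for interleukin-10, was 4.68-fold higher (112 against 24.0 CPM), the largest ratio among the 14 measured genes of the cytokine receptor list.

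Cells of the same 2 libraries that did not meet the rule showed the same comparison in other sets. In cells without a receptor UMI and without Foxp3 or Il2ra, 1140 combined and 326 depleted, 4.01% of genes stood 2-fold or more above and 1.71% below. In the 1973 combined and 1412 depleted cells where Foxp3 or Il2ra was seen the shares were 0.464% and 0.248%. These sets come from the same libraries and the difference between them was not tested. Side by side, the log2 ratio of Nkg7 was 2.18 in the receptor-positive cells, 2.40 in the receptor-negative and 0.01 in the Foxp3 or Il2ra cells. That of Gzmk was 3.72, 3.48 and 0.87, and that of Mki67 -1.60, -1.0 and 0.07. Eno1 gave -2.36, -2.33 and -2.10, Bcl2a1d -3.30, -2.96 and -2.44, Lag3 1.17, 1.29 and 1.37, and Kcnc1 4.81, 5.24 and 4.44. Eomes stood at 1.46, Itga4 at 1.64 and Fosb at 1.36 in the Foxp3 or Il2ra cells. In that set Eomes (17.4 against 6.33 CPM) and Gzmk (16.6 against 9.09 CPM) were below the limit for measured genes. Nkg7 was thus near 0 there and Eomes, Itga4 and Fosb were higher, while Eno1, Bcl2a1d, Lag3 and Kcnc1 stood more than 2-fold apart in every one of the 3 sets. Ifitm1 and Ifitm2 were lower in both other sets by smaller ratios than in the receptor-positive cells. In the receptor-negative cells they stood at 122.7 against 302.5 and at 268.7 against 377.5 CPM. In the Foxp3 or Il2ra cells they stood at 34.0 against 213.7 and at 269.2 against 709.4 CPM.

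The antibody given without depletion could be read with the same rule in other libraries, 3271 antibody and 668 untreated cells. There 184 of 6626 genes stood 2-fold or more above (2.78%) and 93 below (1.4%). Of the 331 genes that were higher with antibody after depletion, 304 were on the other side without depletion (91.8%), and of the 204 lower genes 197 (96.6%), where 76.7% of all 6590 measured genes were on opposite sides. Nkg7 was 4.53-fold higher with antibody after depletion and 2.38-fold lower without it. For Itga4 the values were 11.2-fold higher and 3.36-fold lower, and for Fosb 5.25-fold higher and 2.37-fold lower. Mki67 stood at 388 against 74.0 CPM without depletion and at 103 against 314 CPM after it, and Vim at 1875 against 732 and at 442 against 1532 CPM. Cd40lg stood at 160 against 172 CPM without depletion and at 29.3 against 135 CPM after it, and Tnf at 66.6 against 61.2 and at 12.5 against 59.8 CPM. Depth differed in opposite ways too: the antibody cells were deeper than the untreated ones (medians of 5118 and 3457 UMIs), and the combined cells shallower than the depleted ones. The difference between the 2 contrasts was not tested, and with 1 library per group a library and its treatment cannot be told apart.

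**Figure D5:**
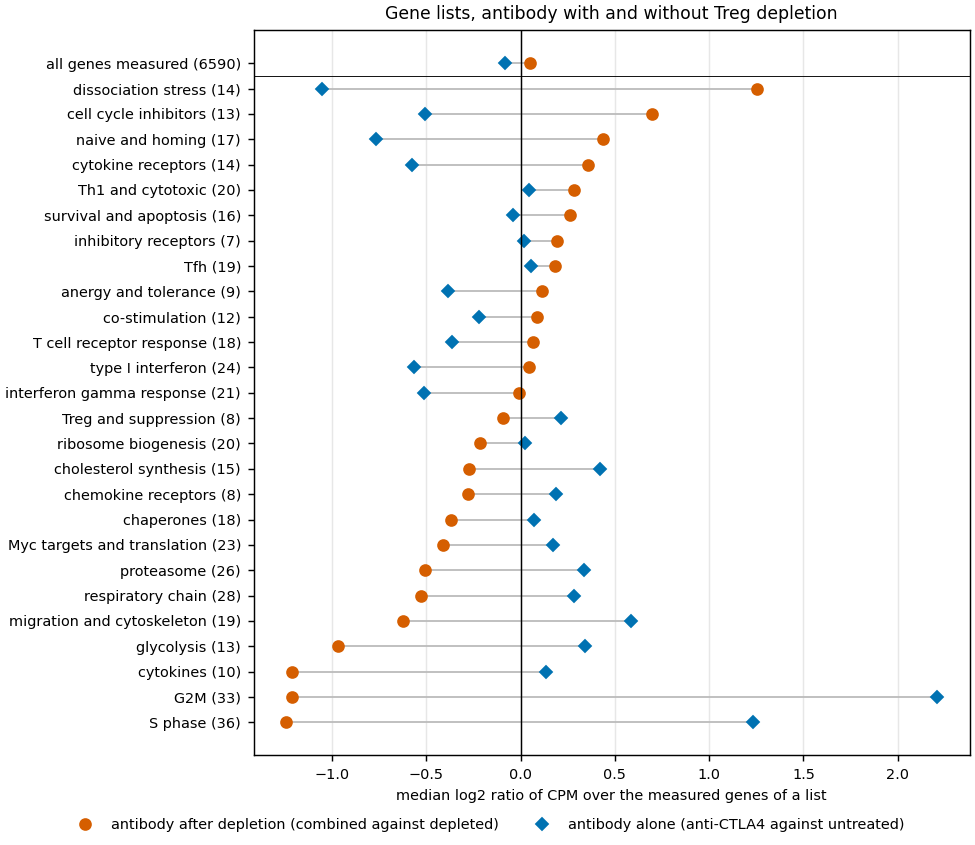
Median log2 ratio of CPM for 26 gene lists and all measured genes, for antibody after Treg depletion (circles, combined over depleted) and for antibody alone (diamonds, antibody over untreated), in cells that met the same rule, with the number of genes measured in the first comparison in brackets. The G2M list stands at -1.21 and 2.21 and the dissociation stress list at 1.25 and -1.05.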

How the data were processed

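Cells sorted as CD4+CD45.1+ were profiled as 5 single-cell RNA libraries. The authors deposited UMI counts for each cell over 11924 genes, which tested as whole numbers. The submitters' processing notes name bcl2fastq 2.20, Cell Ranger 6.0.0, the mm10 build, R 4.1.1 and Seurat 4.0.4, and further steps are not given in the sources used here. Since 5 mitochondrial and 7 ribosomal protein genes are listed, totals and CPM refer to the listed genes.

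A filter of 200 genes and 10% mitochondrial UMIs removed 0 cells. UMIs were summed over the counted cells of a library and scaled to CPM. Intervals are exact at 95% and cover counting error only: conditional binomial (Clopper-Pearson) for ratios, Poisson for CPM, binomial for shares. A gene at 0 was set to 3 UMIs. Genes were counted from 2-fold, and members of the 27 gene lists from 1.5-fold. Thinning drew 1000 UMIs per cell without replacement. No doublet caller was run, and 51 combined and 22 depleted cells with 2 or more markers of another cell type were left out in an alternative. The code was tested on simulated data.

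The cells, gene lists and alternatives were chosen with earlier results of these data known. The text names the 12 genes on each side whose ratio interval stays farthest from 1 (leaving out mitochondrial, ribosomal protein and sex-linked genes, receptor variable genes, immunoglobulin, hemoglobin and unnamed models), 2 to 4 measured genes per list with the largest log2 ratio, and 25 fixed genes, of which some are not reported here. Names beyond these rules, such as Nkg7, were picked with their values in view. Coordinates are from GENCODE M21 (GRCm38), which holds 11814 of the names. Alternatives concerned depth, the cell rule, cell filters, scaling and count limits. The tools were Python 3.11.15, numpy 2.4.6, pandas 2.3.3, scipy 1.17.1 and matplotlib 3.10.9, with scaling factors from edgeR 4.0.16 in R 4.3.3.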

Additional observations from a re-analysis of the deposited data

Results flagged for a closer look

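The median of 22 of 26 gene lists had opposite signs for antibody with and without Treg depletion, and for 4 lists both medians lay past 1.5-fold. This difference was not tested. The median log2 ratio of the G2M list was -1.21 for antibody after depletion and 2.21 for antibody alone, and that of the S phase list -1.24 and 1.23. The migration and cytoskeleton list stood at -0.62 and 0.59. The dissociation stress list stood at 1.25 and -1.05. The median depths of the cells ran alongside, at 2162.5 against 4199 UMIs after depletion and 5118 against 3457 UMIs without it, and their part in these values was not tested.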

How the results depend on the processing

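The 19 alternatives, 3 of them added after the data had been seen, gave 2560 values for 135 named genes: 1853 lay within the counting interval of the reported value, 688 outside it on the same side or for genes below 2-fold, and 19, of genes past 2-fold, on the other side. For the gene lists 378 of 494 medians moved by at most 0.2, 110 by more, and 6 of lists at least 1.5-fold apart changed sign. The count of higher genes (331) stood at 102 with a CPM minimum of 100 and 1325 with no minimum, and that of lower genes (204) at 73 and 843, since these change the genes tested. Lower genes numbered 125 in cells with 2000 to 5000 UMIs, 107 without G2M-positive cells and 135 without cells holding Eomes, Gzmk or Nkg7. The higher genes made up 73.8% of those past 2-fold with thinning to 500 UMIs, 75% with the rule applied after thinning, 72.7% without G2M-positive cells and 71.4% (392 higher, 157 lower) without cells of the narrower G2M list.

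In cells with 2000 to 5000 UMIs the log2 ratios that changed side were Jchain -0.18, Lgals3 0.68, Tpx2 0.20, Ccna2 2.46, Rrm2 0.12 and Cdkn2c 0.22, with the G2M and S phase medians at 0.12 and 0.18. With the rule applied after thinning they were Jchain -2.40, Rrm2 0.24 and Trbv13-1 -0.0040. Without G2M-positive cells they were Hist1h2ap 0.27, Lgals3 1.98, Rrm2 0.69 and Tk1 0.27, with medians of 0.22 and 0.48. Without cells of the narrower G2M list they were Lgals3 0.41, Ccnb2 0.55, Rrm2 0.80 and Tyms 0.97, with medians of 0.29 and 0.23. Without cells holding Eomes, Gzmk or Nkg7 they were Ccl5 -0.81 and Nr4a2 -1.22. Leaving out cells by their G2M genes selects on the levels compared. The other causes were not tested.

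The G2M-positive share was 71.6% in combined and 70.8% in depleted cells. It was 41.1% and 40.4% after thinning to 500 UMIs, 91.8% and 95.8% without thinning, 37.7% and 41.8% with at least 3 genes, and 13.4% and 27.9% with the narrower list. With the rule applied after thinning it was 71.8% and 63.6%. No paired analysis was possible because each group is 1 library, and no library could be left out.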
